A study of Bombyx mori with 2 samples.

Results

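Retained introns of wing bud transcripts are described here from RNA sequenced from the hindwing and forewing buds of the silkmoth *Bombyx mori*. An intron was counted as retained where it lay wholly inside an exon of another multi-exon transcript on the same scaffold and strand, with the intron and the exon taken from either wing bud. By this rule 2199 of 62587 introns (3.51%) were members, and the remaining 60388 are called the other introns. The hindwing library (from the third thoracic segment) and the forewing library (from the second) were each made from 80 pooled wing buds of Daizo larvae in the fourth instar, fed on mulberry leaves and anaesthetised on ice, with no other treatment named. Whole buds were pooled, so RNA of all their cell types is mixed. There was 1 library per wing bud and therefore no replicate, so no test across animals was possible. Every difference between wing buds below is between these 2 libraries, and the bounds of retention and of midpoints cover counting and assignment error only. Wilson intervals of shares are over introns and treat them as independent, although introns of a locus share transcripts.

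Introns are removed from a primary transcript by the spliceosome, which joins the exons on either side. Short introns, frequent in insects, are thought to be recognised as a unit across the intron, long ones more often across the exon. An intron left in an RNA can shift the reading frame or bring in an early stop codon, and such RNAs are often held in the nucleus or degraded. Retention can also be regulated. In *Drosophila*, the RNA-binding protein Sex-lethal keeps an intron in the transcript of the dosage compensation gene *msl-2* in females. The labels name no step that selects polyadenylated RNA, so unprocessed RNA can be among the fragments.

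Gene names could not be attached, because the loci carry only running numbers and the gene table at hand is of another assembly. Introns are therefore given by scaffold, strand, start and end, 1-based as deposited. No genome of this build was used, so splice site sequences were not analysed. The value of a transcript is the midpoint of the deposited bounds of its FPKM (fragments per kilobase of transcript, scaled to 1000000 mapped fragments). Retention in a library is the summed midpoint of the transcripts that retain the intron, as a percentage of those that retain it plus those that splice out exactly that intron. Bounds printed after a retention set the lower bounds of the retaining transcripts against the upper bounds of the splicing ones, and the reverse. Where only retaining transcripts were assembled, retention is 100% with no bounds. Loci are sets of multi-exon transcripts that share exon bases on a strand, and their level is given in fragments per 1000000 fragments (FPM), together with single-exon transcripts that share their exon bases. Depth was worked out from the bounds. It came to about 43464500 fragments for hindwing against 37162000 for forewing, a ratio of 1.17.

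Retained introns were short. Their median length was 357 bases (quartiles 112 and 818), against 761 bases (407 and 1461) for the other introns. Introns under 100 bases made up 22.3% of the retained introns (491, 95% Wilson interval 20.6 to 24.1%) and 6.41% of the others (6.21 to 6.60%). At the other end, 111 retained introns (5.05%) and 18.2% of the others reached 2000 bases. The share of introns with a retaining exon fell at each step of length. It was 13.7% (12.2 to 15.3%) below 80 bases, 9.40% (8.31 to 10.6%) from 80 to 99 bases, 2.53% (2.31 to 2.76%) from 500 bases to under 1000 and 0.268% (0.160 to 0.449%) from 5000 bases upwards. The rule itself makes a long intron harder to find, since a longer exon must contain it, and the retaining exons had a median length of 1022 bases (quartiles 556 and 1965).

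The first intron of a transcript was retained more often than an internal one, and most so when short. The place of an intron was read from the most abundant transcript that splices it out, which may not reach the true start of a gene. First introns made up 34.0% of the retained introns (32.1 to 36.0%) and 18.7% of the others (18.4 to 19.0%). Last introns made up 20.7% (19.1 to 22.5%) and 17.2% (16.9 to 17.53%), while internal ones made up 40.4% and 58.4%. Among introns under 200 bases, 379 of 2340 first introns were retained (16.2%, 14.8 to 17.7%), against 120 of 1147 last ones (10.5%, 8.82 to 12.4%) and 250 of 4157 internal ones (6.01%, 5.33 to 6.78%). From 1000 bases upwards first introns were no longer above internal ones, with 1.36% (1.08 to 1.72%) of first, 1.503% (1.31 to 1.73%) of internal and 2.94% of last introns. In transcripts of at least 6 introns, 5.70% of first introns were retained, 1.94% of those in the second place and 2.69% of those in the fifth, and 3.92% of the last.

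**Figure D1:**
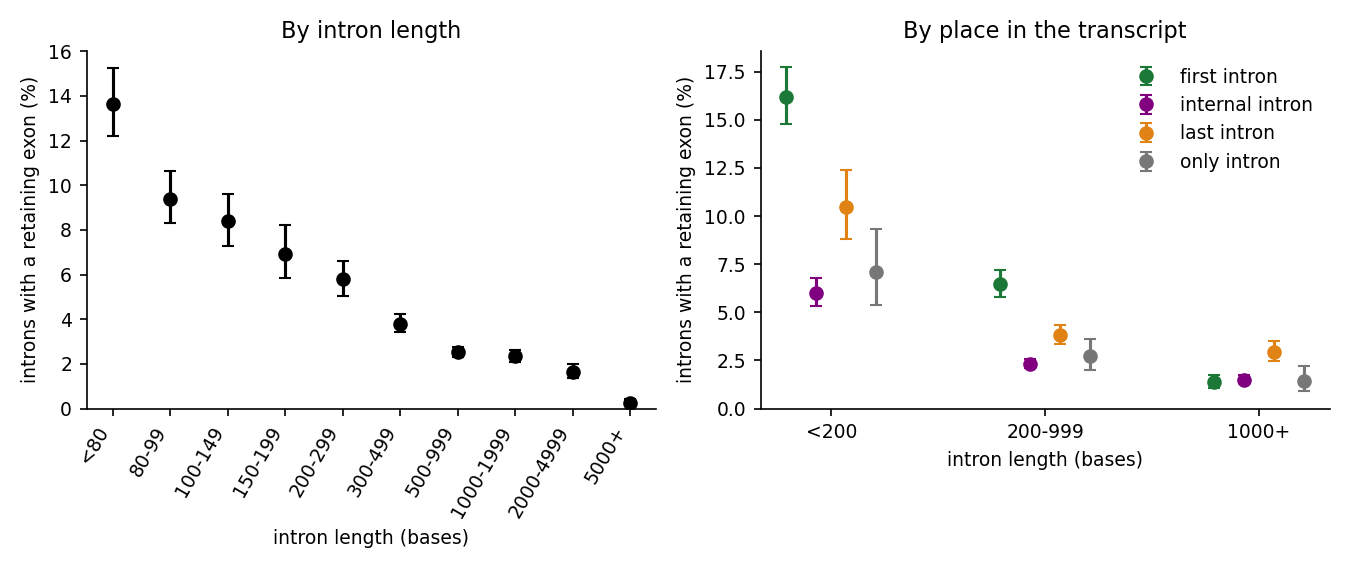
Share of all introns that lie inside an exon of another multi-exon transcript (y axis, %) by intron length in bases (left) and by place in the transcript within 3 ranges of length (right). Points are shares and bars 95% Wilson intervals over introns of both libraries; the share falls from 13.7% below 80 bases to 0.268% from 5000 bases, and short first introns stand highest at 16.2%.

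The share of first introns moved with the kind of retaining exon. A retaining exon was the first exon of its transcript for 865 members, an internal exon for 841 and the last exon for 659, and a member can count under several. When only internal retaining exons were allowed, 841 members were left, of which 8.68% were first introns, against 19.4% of the other introns. A first intron retained between its own neighbouring exons necessarily lies in a first exon, so this setting removes nearly all such cases. Among the 1281 members with a retaining exon that began and ended exactly where the neighbouring exons did, 23.5% were first introns, against 18.7% of the other introns. For a first intron this match requires the same assembled transcript start, so this setting also removes first introns more readily.

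Short introns were retained more often at every level of expression. Among loci of 1 to 5 FPM, averaged over the libraries, 10.7% of introns under 200 bases and 1.60% of longer ones were retained. At 5 to 20 FPM the shares were 12.1% and 2.80%, at 20 to 100 FPM 9.96% and 2.90%, and at 100 FPM or more 6.98% and 2.65%. First introns exceeded internal ones in the same 4 ranges, with 7.43% (6.72 to 8.19%) against 2.63% (2.39 to 2.88%) at 20 to 100 FPM. Below 1 FPM 19 of 2144 introns were retained, and first and internal introns had close shares of 1.09% and 0.969%.

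The length of a retained intron showed little preference for whole codons. It was a multiple of 3 for 758 of 2199 members (34.5%, 32.5 to 36.5%) and for 33.2% of the other introns (32.8 to 33.6%), so a retained intron would shift the frame in most cases if it lay in coding sequence. Whether these introns lie in coding sequence or in UTRs was not analysed here.

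Retention mostly touched 1 intron in a locus. Members lay in 1536 of 11987 loci (12.8%), of which 1092 had 1 member, 298 had 2 and 146 had at least 3. Introns with alternative splice sites overlap each other, and the 2199 members fell into 1970 places that do not overlap. Of the 2501 retaining exons, 2253 held 1 such intron or a set of overlapping ones, 215 held 2 and 33 held at least 3. The retaining transcripts numbered 1491 in hindwing (9.07% of its multi-exon transcripts) and 1326 in forewing (8.38%). For 2099 members (95.5%) a retaining transcript also shared another intron with a transcript that splices the member out.

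Because the kit does not mark strand, reads of a gene on the other strand can fill an intron. Exons of multi-exon transcripts on the other strand overlapped 125 members (5.68%, 4.79 to 6.73%) and 3.39% of the other introns (3.25 to 3.54%). Without these introns 2074 members remained. Their part in the retention of the 125 was not tested.

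In each library the members were wholly retained, partly retained or wholly spliced, as the transcripts assembled there decided. In hindwing 587 members had only retaining transcripts, 1028 had both forms, 515 had only splicing transcripts and 69 had neither. In forewing these numbers were 395, 1048, 683 and 73. "Wholly retained" means only that no assembled transcript spliced out exactly that intron. A transcript can still splice the same stretch at a shifted site. An example chosen after its values were seen is the 367-base intron at nscaf2176, plus strand, 2398890-2399256, wholly retained in hindwing. The overlapping 362-base intron at 2398895-2399256 had a retention of 23.0% there. Both libraries retained 859 members (39.1%). The hindwing library alone retained 683, with only splicing transcripts in forewing, and the forewing library alone retained 515. Another 73 were retained in hindwing and 69 in forewing with no transcript of either form in the other library, and these have no value there. For comparison, 51862 of the 60388 other introns (85.9%) were spliced out in both libraries, and the rest were assembled in 1 library only. Among the members, 1075 (48.9%) were spliced out in both.

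**Figure D2:**
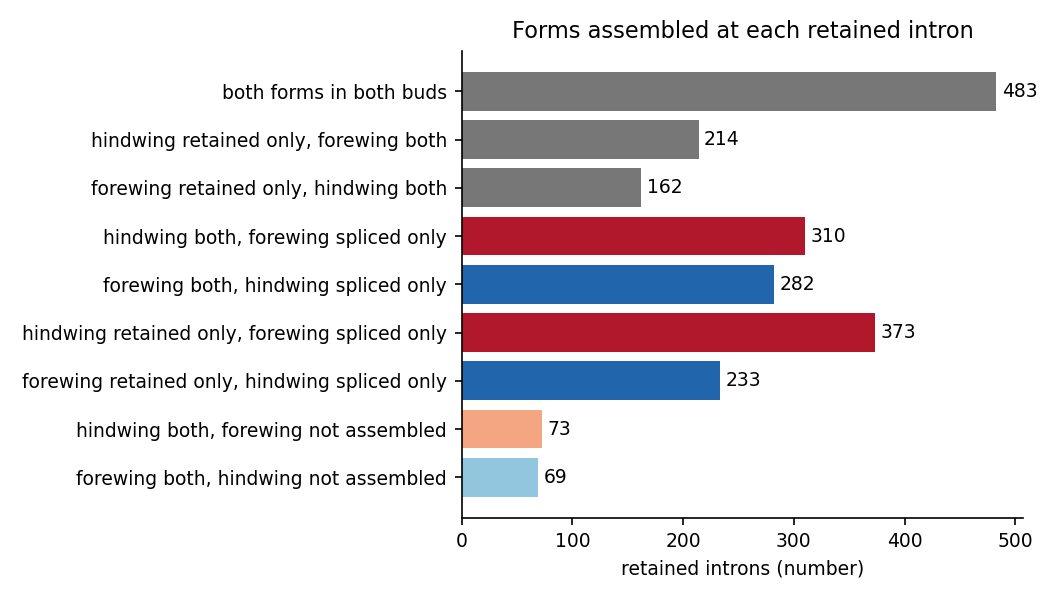
Number of retained introns (x axis) by the forms assembled in each wing bud, retained, spliced, both or neither. Grey bars are introns retained in both buds, red bars in hindwing only and blue bars in forewing only. Pale red (hindwing) and pale blue (forewing) bars are retained introns with neither form assembled in the other bud. Both forms in both buds were found for 483 introns, and 373 against 233 were wholly retained in 1 bud and wholly spliced in the other.

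Most of the surplus of hindwing-only members lay in whole switches. These are introns with only retaining transcripts in 1 library and only splicing transcripts in the other. There were 373 wholly retained in hindwing and 233 wholly retained in forewing. Members partly retained in 1 library and wholly spliced in the other numbered 310 for hindwing and 282 for forewing. Each whole switch pairs an intron of 1 library with a retaining exon of the other, so its full contrast is set by how it entered the list. When intron and retaining exon had to come from the same library, every whole switch dropped out. The members retained in 1 bud only were then 310 for hindwing and 282 for forewing. The surplus and the lengths of the switches therefore rest on pairing the assemblies of both libraries. A retaining exon that began and ended exactly where the neighbouring exons did was found for only 107 of the 373 (28.7%) and 71 of the 233 (30.5%). For members with both forms in both libraries this share was 82.2%. The remaining switches rest on retaining exons with another start or end. With internal retaining exons only, members retained in 1 bud only numbered 282 for hindwing and 268 for forewing. The whole switches also differed in length. Those retained in hindwing had a median of 525 bases (quartiles 155 and 960) and those retained in forewing a median of 227 bases (82 and 549). Introns under 100 bases made up 16.4% (12.9 to 20.4%) of the former and 36.9% (31.0 to 43.3%) of the latter. The hindwing library had more fragments, and it also held more single-exon transcripts lying inside introns, 3885 (23.5% of its single-exon transcripts) against 2274 in forewing (18.9%). A single-exon transcript overlapped 21.6% of all members and 10.3% of the other introns, and it overlapped 23.1% (19.1 to 27.6%) of the hindwing switches and 28.8% (23.3 to 34.9%) of the forewing switches. Their part in the difference was not tested.

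**Figure D3:**
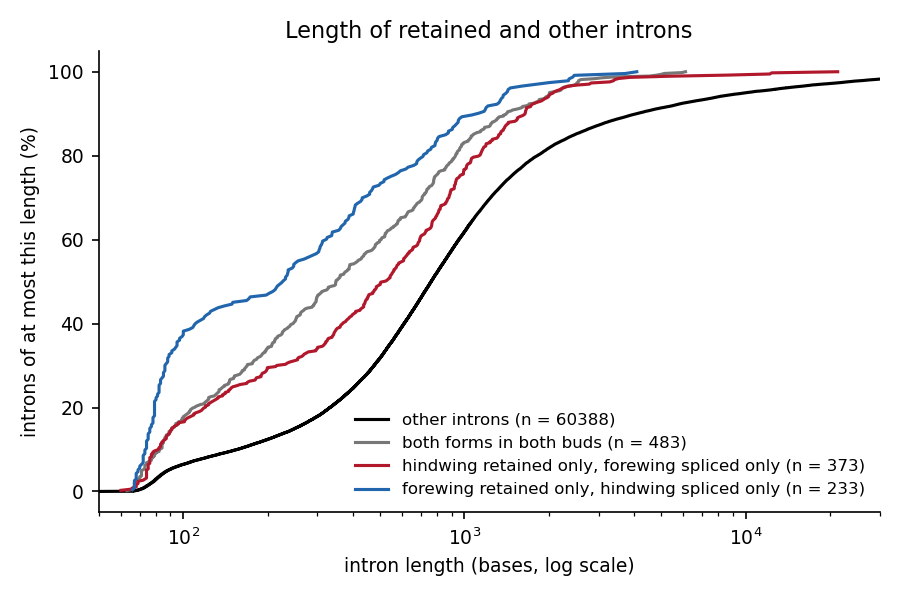
Cumulative share of introns (y axis, %) by length in bases on a log scale (x axis), for the other introns (black), members with both forms in both buds (grey) and members wholly retained in hindwing (red) or in forewing (blue) and wholly spliced in the other bud, with the longest of the other introns beyond the right edge. All retained sets lie to the left of the other introns, whose median is 761 bases, and the forewing switches, with a median of 227 bases, are the shortest.

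Few loci of these switches differed 2-fold in level between the wing buds. Loci at least 2-fold different in FPM between the libraries were 3.97% of the 10252 spliced loci with at least 1 FPM in a library, on the scale of FPM + 1. It was 3.29% of the 334 such loci with a hindwing switch and 4.63% of the 216 with a forewing switch. Among all loci with a member the share was 4.36% (65 of 1490), and all these shares were near the background. The summed midpoint of retaining and splicing transcripts differed 2-fold at 27.9% of the 373 hindwing switches, 17 in favour of hindwing and 87 of forewing. It also differed at 18.9% of the 233 forewing switches (22 and 22). At a switch this sets retaining transcripts in 1 library against splicing ones in the other, and these can differ in length. In fragments, not scaled for depth, the hindwing switches had medians of 722 in hindwing and 647 in forewing, and the forewing switches 551 and 664. The 2-fold share of midpoints was 7.47% for the other introns assembled in both libraries. It was 3.11% for members with both forms in both.

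Partial retention in 1 wing bud only was lower than partial retention in both. The lowest retention above 0 was 9.40% in hindwing and 9.56% in forewing, and no lower share appears among the members of either library. "Wholly spliced" therefore means only that no retaining transcript was assembled. Members partly retained in hindwing and wholly spliced in forewing had a median retention of 30.8% (quartiles 20.3 and 48.2%), and 23.9% of them lay below 20%. In the reverse case the median was 29.3% (19.6 and 44.5%), with 25.9% below 20%. Where both libraries held both forms, 9.73% of hindwing and 10.6% of forewing values lay below 20%.

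Where both libraries held both forms, most introns differed little between the wing buds. These 483 members, in 385 loci, had a median retention in the hindwing bud of 41.4% (quartiles 27.5 and 55.8%), and in the forewing bud of 38.9% (27.7 and 54.1%). The values ranged from 10.2 to 89.4% in hindwing and from 9.91 to 88.9% in forewing. The median intron differed by 7.22 percentage points in either direction, and 297 (61.5%) differed by at most 10 points. The bounds were apart for 176 (36.4%), of which 105 were higher in hindwing and 71 in forewing. Retention was higher in hindwing for 269 (55.7%), with a median difference of 1.26 points. Across these introns Pearson's correlation was 0.69 and Spearman's was 0.68. Introns of a locus share transcripts and are not independent, and the 2 libraries share no fragments. Both forms in both libraries were required, so whole switches do not enter these values. They rested on a median of 716 retaining and 683 splicing fragments in hindwing, and 637 and 633 in forewing.

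**Figure D4:**
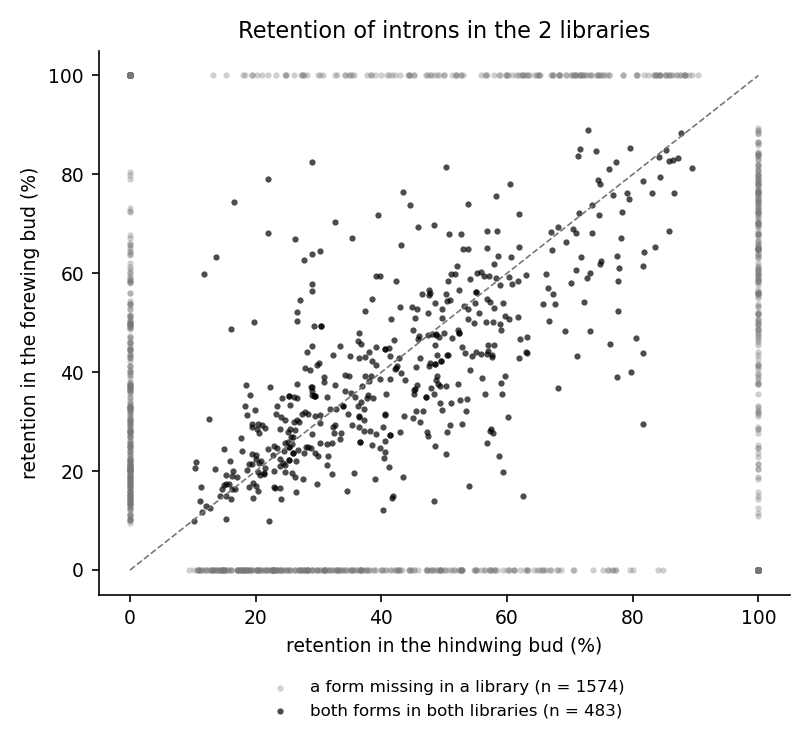
Retention in the hindwing bud (x axis, %) against retention in the forewing bud (y axis, %) for the 2057 retained introns with a value in both libraries. Black points have both forms in both libraries (n = 483, median absolute difference 7.22 points), grey points lie on the edges at 0 or 100% because a form was not assembled in a library, and the dashed line marks equal retention.

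In this group median retention was higher for first and last introns than for internal ones. By length, the median was 42.6% in hindwing and 46.8% in forewing for 84 introns under 100 bases, and 40.9% and 37.6% for 82 introns of at least 1000 bases. First introns (135) had medians of 47.6% and 46.8%, last introns (95) 47.6% and 44.3%, and internal introns (246) 37.4% and 35.1%. The quartiles overlapped widely, at 29.7 to 61.2% for first and 25.9 to 49.4% for internal introns in hindwing. The retained form was the larger one in both libraries at 109 of the 483 introns and the smaller one in both at 272. It exceeded 50% only in hindwing at 60 and only in forewing at 42.

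Few of these introns differed strongly between the wing buds. A difference of at least 25 points with bounds apart was found for 22 introns higher in hindwing (4.55% of 483) and 20 higher in forewing (4.14%). Over all 2057 members with a value in both libraries the shares were 36.4% (749) and 26.3% (541), but only 22 and 20 of these calls had bounds in both libraries. The others set a value of 0 or 100%, which has no bounds, against a partial value or, in 373 and 233 whole switches, against its opposite. A total of 1301 members had a summed midpoint of at least 5 in both libraries, and of these 651 were retained in both, 350 in hindwing only and 300 in forewing only. The introns given by position were taken from these 1301, except for the longest, the shortest and the runs of introns in 1 exon.

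Among the 1301, the introns with both forms in both libraries and the largest differences were singled out after their values were seen. The last of 9 introns at nscaf3027, minus strand, 3758164-3758946 (783 bases) had a retention of 81.7% in hindwing (bounds 80.0 to 83.4%) and 29.5% in forewing (26.5 to 32.7%). Its retaining midpoint was 22.3 in hindwing and 12.5 in forewing, and its splicing midpoint 4.98 and 29.7. The locus level was close, at 174 and 169 FPM, and an exon on the other strand overlaps this intron. At nscaf2912, minus strand, 1177317-1178097 (781 bases, place 6 of 7), retention was 62.5% (56.1 to 68.4%) in hindwing and 15.0% (11.54 to 19.0%) in forewing. The third, a 248-base intron at nscaf3052, minus strand, 1222015-1222262, had 77.5% (72.0 to 82.7%) and 38.9% (30.4 to 49.2%). All of them lay in the last exon of a retaining transcript.

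On the forewing side the corresponding introns were shorter. The first of 3 introns at nscaf2902, minus strand, 6390353-6390423 (71 bases) had a retention of 16.6% (14.1 to 19.2%) in hindwing and 74.3% (70.1 to 78.4%) in forewing. Its retaining midpoint was 6.49 in hindwing and 24.3 in forewing, and its splicing midpoint 32.6 and 8.42. The first of 5 introns at nscaf3099, minus strand, 1710849-1711054 (206 bases) had 22.0% (18.2 to 26.1%) and 79.1% (74.2 to 83.8%). At nscaf1898, plus strand, 12769928-12770014 (87 bases, place 3 of 5), retention was 29.0% (26.1 to 31.9%) in hindwing and 82.5% (79.2 to 85.4%) in forewing, at locus levels of 81.2 and 77.1 FPM. The locus at nscaf2902 stood at 55.6 and 44.8 FPM.

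Among all members retained in both libraries, the largest differences set a partly retained intron against a wholly retained one. On the hindwing side the first of these was nscaf1299, plus strand, 302486-302561 (76 bases, the last of 3), wholly retained in hindwing with a midpoint of 17.4 and retained to 11.0% (8.58 to 13.8%) in forewing, where the splicing midpoint was 16.0. It was followed by nscaf3053, plus strand, 325404-325712 (11.4% in forewing), nscaf2980, minus strand, 172851-173039 (14.4%), and nscaf2279, plus strand, 154688-155881 (15.1%). At nscaf3053 the retaining exon begins with the first base of the intron, so it holds the intron without any of the exon before it. At nscaf1299 the shortest retaining exon ends at 302569, and at nscaf2279 it begins at 154680, each only a few bases beyond the intron. At nscaf2980 the locus stood at 139 FPM in hindwing and 135 FPM in forewing, and all its fragments were in retaining or splicing transcripts in both. At nscaf3053 such transcripts held 19.7% of the locus in hindwing and 100% in forewing, and at nscaf2279 they held 87.2% and 25.5%.

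Short first introns led on the forewing side. At nscaf3098, minus strand, 122283-122365 (83 bases, the first of 2), retention was 13.1% (10.5 to 16.1%) in hindwing, with a splicing midpoint of 25.9, and whole in forewing, with a retaining midpoint of 24.1. This locus also differed in level, with 25.4 FPM in hindwing and 81.4 FPM in forewing. The others were nscaf3056, plus strand, 1504991-1505060 (18.0% in hindwing), nscaf3075, plus strand, 1192748-1193551 (19.4%), and nscaf2931, plus strand, 981750-981875 (19.47%). Of these 4 introns, 3 were the first of their transcript, and the 804-base intron at nscaf3075 held place 9 of 10.

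**Figure D5:**
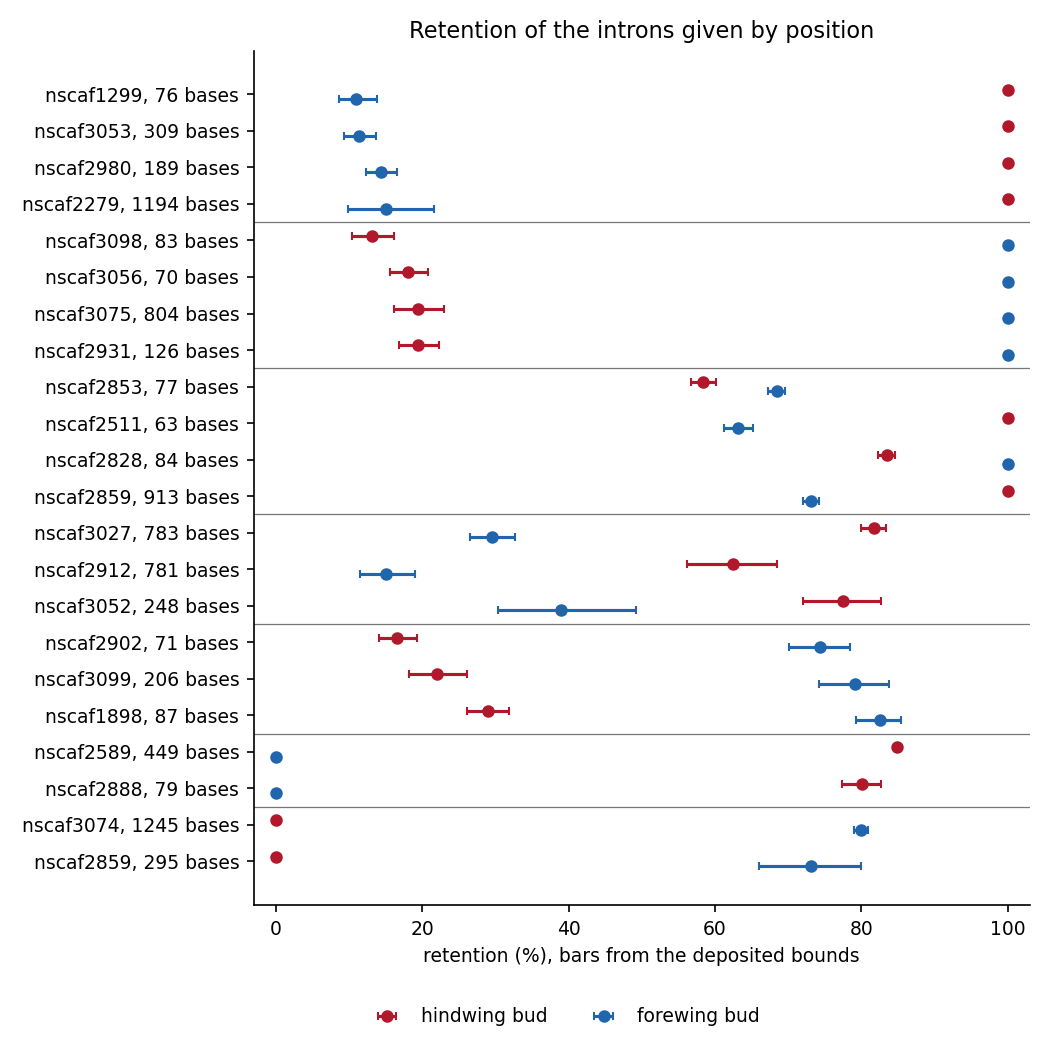
Retention (x axis, %) in hindwing (red) and forewing (blue) of introns given by position, with bars from the deposited bounds and none where a form was not assembled. From the top, the blocks hold introns retained in both buds with the largest excess in hindwing and in forewing, those most abundant at 50% or more in both, those with both forms in both buds and the largest excess in hindwing and in forewing, and those partly retained in hindwing only and in forewing only; the bars of the 2 buds do not overlap in any row.

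Whole switches were numerous enough that the naming rule ended in ties. Of the members of sufficient level, 175 were wholly retained in hindwing and wholly spliced in forewing, and 106 were the reverse. They were then taken in the order of scaffold names. In hindwing the introns at nscaf1681, minus strand, 3826131-3826687 (557 bases) and 5617637-5618261 (625 bases) were retained in an internal exon that ended exactly with its neighbours. Their retaining midpoints were 5.37 (bounds 4.91 to 5.82) and 7.33 (6.73 to 7.93) in hindwing, and their splicing midpoints 18.1 and 11.95 in forewing. The retaining or splicing transcripts of the former held only 20.2% and 17.4% of the fragments of the locus, and an exon on the other strand overlaps it. The other 2 on this scaffold and strand, at 441819-442114 and 2592483-2592924, were first introns held in a first exon. At 441819-442114 that exon reached only a few bases past the intron, and the splicing midpoint of 105 in forewing faced a retaining midpoint of 76.1 in hindwing. At 2592483-2592924 retaining or splicing transcripts held 100% of the locus in hindwing and 45.3% in forewing.

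In forewing the switches included very short internal introns. At nscaf1681, plus strand, 2977092-2977169 (78 bases, place 3 of 8), the splicing midpoint was 12.1 (10.9 to 13.2) in hindwing and the retaining midpoint 12.5 (11.2 to 13.7) in forewing, at locus levels of 41.5 and 43.7 FPM. At nscaf1690, minus strand, 5174144-5174222 (79 bases, place 9 of 10), they were 24.4 (23.1 to 25.7) and 25.2 (23.5 to 26.8). In both, the splicing midpoint in hindwing and the retaining midpoint in forewing had overlapping bounds. The 1351-base last intron at nscaf1108, plus strand, 692242-693592 had a splicing midpoint of 14.2 in hindwing and a retaining midpoint of 12.4 in forewing. At nscaf1299, minus strand, 310191-310421 the values were 8.37 and 5.16, and the transcripts held 29.4% and 34.6% of the fragments of the locus.

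Of the members partly retained in 1 library and wholly spliced in the other, those with the highest retention were also singled out after their values were seen. The last of 7 introns at nscaf2589, plus strand, 5264932-5265380 (449 bases) was retained to 84.9% in hindwing (84.4 to 85.3%), with a midpoint of 761.6, and had only a splicing transcript in forewing, at 215. The locus stood at 2663 FPM in hindwing and 2526 FPM in forewing, but only 23.1% of its forewing fragments were in that splicing transcript, and the rest lay in transcripts that neither retain nor splice this intron. At nscaf2888, minus strand, 454175-454253 (79 bases, place 9 of 23), retention was 80.1% (77.4 to 82.7%) in hindwing. There the splicing midpoint was 6.39 in hindwing and 31.4 in forewing, and all fragments of the locus were in retaining or splicing transcripts in both libraries.

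In forewing the leading case was again a last intron. The last of 4 introns at nscaf3074, plus strand, 228131-229375 (1245 bases) was retained to 79.9% (79.0 to 80.9%) in forewing, with a retaining midpoint of 321 and a splicing midpoint of 80.5, against a splicing midpoint of 99.3 in hindwing. The retaining exon ends with the last base of the intron, and the transcripts held 14.0% of the fragments of the locus in hindwing and 63.6% in forewing. The 295-base intron at nscaf2859, minus strand, 1042555-1042849 was retained to 73.2% (66.0 to 80.0%) in forewing on about 462 fragments, and was spliced in hindwing with a midpoint of 5.23. There the transcripts held 25.6% of the locus in hindwing and 21.4% in forewing. Over all hindwing-only members, retaining and splicing transcripts held a median of 85.4% of the locus in hindwing and 74.3% in forewing. For forewing-only members the medians were 69.8% and 100%. The library without the retained form thus held the lower median in both classes.

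Of the 275 members of sufficient level with a retention of 50% or more in both wing buds, the 4 most abundant are given. The 77-base intron at nscaf2853, minus strand, 1948373-1948449, the only one of its most abundant splicing transcript, had a retaining midpoint of 338 in hindwing and 258 in forewing, and a splicing midpoint of 240 and 119. Its retention was 58.4% (56.7 to 60.1%) and 68.4% (67.3 to 69.6%). In fragments the direction was the reverse, with 39004.5 retaining and 5985 splicing in hindwing against 21177.5 and 10569 in forewing. At nscaf2511, plus strand, 5250428-5250490 (63 bases), the retaining midpoint was 331 and 218, and the intron was wholly retained in hindwing and to 63.2% (61.3 to 65.1%) in forewing. A neighbouring intron of the same locus, at 5250887-5250970 (84 bases), had 60.6% (59.0 to 62.3%) and 63.2%, and was chosen after its values were seen. Its forewing midpoints, 218 retaining and 127 splicing, were those of the 63-base intron, so the 2 forewing values are not independent. For either intron such transcripts held 48.9% of the locus in hindwing and 50.2% in forewing. At nscaf2828, plus strand, 3993796-3993879 (84 bases), retention was 83.5% (82.3 to 84.6%) in hindwing and whole in forewing. At nscaf2859, minus strand, 1246174-1247086 (913 bases), it was whole in hindwing and 73.1% (72.0 to 74.3%) in forewing. At nscaf2828 the shortest retaining exon begins at 3993787, only a few bases before the intron.

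A first intron at nscaf2053, plus strand, 83203-83286 (84 bases), also chosen after its values were seen, showed a lower and nearly equal retention. It was 22.0% (20.8 to 23.1%) in hindwing and 24.5% (23.2 to 25.8%) in forewing, with overlapping bounds. The retaining midpoint was 93.8 and 98.9, and the splicing midpoint 334 and 305.

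The 2 longest members were whole switches retained in hindwing. The longest member was the 21255-base first intron at nscaf2589, plus strand, 1611058-1632312, contained in an exon of 21611 bases. It had a retaining midpoint of 2.67 (2.54 to 2.80) in hindwing and a splicing midpoint of 33.2 (30.7 to 35.7) in forewing, resting on about 2631 and 1457 fragments. The next, 12373 bases at nscaf2964, minus strand, 4196129-4208501, had 6.67 (6.45 to 6.88) and 6.55 (6.10 to 7.01). Its retaining or splicing transcripts held 74.3% of the locus in hindwing and 23.1% in forewing. The retaining exon ends at 4208524, shortly past the intron. The shortest members were first introns of 57 and 58 bases. The former, at nscaf1898, minus strand, 8548308-8548364, was wholly retained in hindwing and to 66.6% (64.0 to 69.1%) in forewing. The latter, at nscaf2959, minus strand, 136797-136854, was retained to 64.6% (60.6 to 68.4%) in forewing, had no value in hindwing and overlaps an exon on the other strand.

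In a few loci 1 exon held a run of introns. The exon of 6175 bases at nscaf2176, minus strand, 1938533-1944707 contained 6 members, 5 of them not overlapping, with 44.9 FPM in hindwing and 43.4 FPM in forewing. The introns at 1941131-1941492 (362 bases) and 1941605-1942621 (1017 bases) were wholly retained in hindwing, with a midpoint of 7.98, and wholly spliced in forewing, with a midpoint of 10.3. The neighbour at 1939885-1941025 (1141 bases) was partly retained in both, with 56.5% (51.2 to 61.6%) in hindwing and 35.6% (31.1 to 40.6%) in forewing. The exon of 3034 bases at nscaf3040, plus strand, 640113-643146 held 7 members, 5 of them not overlapping. All 7 were wholly spliced in hindwing, and in forewing their retention ran from 35.6% (27.2 to 44.7%) to 100%, with retaining midpoints of 1.65 to 3.07. The locus stood at 32.9 FPM in hindwing and 26.7 FPM in forewing. Retaining or splicing transcripts held 25.9 to 54.4% of it in hindwing and 50.4 to 100% in forewing. Introns in 1 exon share retaining transcripts, and their values are not independent.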

How the data were processed

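RNA of 1 hindwing and 1 forewing library (80 wing buds and 11 PCR cycles each, per the labels) was analysed. Per the study's methods the authors trimmed reads, mapped them with TopHat and assembled transcripts with Cufflinks (version 2.1.1 in the submitters' processing notes), and each library has its own assembly. Genome build and assembler settings: not given in the sources used here. The deposited FPKM and its bounds were used. The deposited score, a ranking of forms against the major form of a gene, was not. Only 82.7% (hindwing) and 82.9% (forewing) of transcripts had an FPKM between the bounds listed with it, so bound midpoints were used.

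Depth was the number of fragments that made bound times length whole (within 0.05) for 96.5% of 13359 hindwing and 96.2% of 9111 forewing bounds of single-exon transcripts below 30 fragments. A retention difference was counted from 25 percentage points with bounds apart, and FPM ratios used a pseudocount of 1. Nothing read here says whether PCR copies were removed.

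Named introns had a summed midpoint of at least 5 in both libraries. They were the 4 retained in 1 bud only with the highest retention (retaining lower bounds of at least 1), the 4 retained in both with bounds apart and the largest difference, each by direction, and the 4 most abundant at 50% or more in both. Without that minimum they were also the 2 longest, the 2 shortest and the 2 exons with most introns. Others are marked as chosen afterwards. Members, classes and lists were chosen with earlier results of these data known. The code was tested on simulated data. Work used Python 3.11.15, numpy 2.4.6, pandas 2.3.3, scipy 1.17.1 and matplotlib 3.10.9.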

Additional observations from a re-analysis of the deposited data

How the results depend on the processing

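Each library is 1 pool, a form of low share is not assembled, and retention rests on whole transcripts, not on reads across the intron. No paired analysis was possible because each wing bud has 1 library and the labels give no replicate numbers. Of 178 alternative values, 116 stayed within 1.5 times (counts) or the 95% interval of the reported value (shares and medians) and 62 did not. The causes were not tested beyond fewer or more introns being counted. A minimum length of 50 bases changed nothing, as no intron is shorter.

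Letting single-exon transcripts retain gave 3940 members (6.30%), 1300 in hindwing only, 839 in forewing only and 1569 in both. Median retention was then 30.3% in hindwing and 19.5% in forewing (34.7% and 32.3% with both forms in both), median length 428 bases and the first-intron share 24.2%. Introns assembled in both libraries gave 1075 members (2.03%), 310, 282 and 483 in these classes, medians of 27.6% and 25.8%, a first-intron share of 26.3% against 17.2% of the other introns (of 748 bases), and 215 and 185 differing introns, higher in hindwing and forewing. Requiring intron and exon in the same file gave 2.55% as members, 310, 282 and 483 in these classes, a hindwing median of 32.5%, and 215 and 185 differing introns. Fragments in place of midpoints raised the medians from 43.5% and 32.3% to 53.6% and 40.3%, and from 41.4% and 38.9% to 51.3% and 48.8% with both forms in both. A shared intron gave 3.35%, and a midpoint of at least 1 gave 3.14%, with 18.4% first among other introns. A difference of 50 points left 338 higher in forewing.

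Of settings added after seeing the data, internal retaining exons gave 841 members (1.34%), 282 in hindwing only, 268 in forewing only and 243 in both, medians of 29.3% and 25.5% (37.3% and 35.8% with both forms in both), lengths of 427 and 753 bases, first-intron shares of 8.68% and 19.4%, and 279 and 227 differing introns. Matching exon ends gave 1281 (2.08%), 319 and 282 in 1 bud only, a hindwing median of 38.3%, 391 bases, 23.5% first introns, and 334 and 266 differing introns.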
